A study of Mus musculus with 18 samples.

Results

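The genes described are 8 chemokines, Cxcl1, Cxcl5, Cxcl12, Cxcl13, Cxcl14, Ccl2, Ccl3 and Ccl7, and the chemokine receptor gene Cxcr6. They were chosen by name for their log2 levels on these arrays, above all in fibroblasts with dox or 4-OHT, among the genes read by a probe set with a single gene symbol. All 9 were found, each with 1 probe set, out of 19938 genes on 18 mouse arrays. Their levels and differences are therefore a description, given without a test.

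Chemokines are small secreted proteins that set the direction in which cells move, and they act through receptors of the G protein-coupled kind. The CXC and CC classes differ in the spacing of conserved cysteines near the start of the protein. Fibroblasts are a common source of chemokines that draw neutrophils and monocytes, and of Cxcl12, which holds stem and blood cells in their niches. Cultures of mouse pluripotent cells are often grown on a layer of fibroblasts.

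RNA was measured on 18 arrays, and the series asks how the consequence of Apc mutation depends on the cell type. Apc is the scaffold protein that keeps beta-catenin, the effector of Wnt signalling, low. The reprogrammed colon tumour cells (RTCs, 3 arrays) are tumour cells returned to a stem cell state by induced pluripotent stem cell methods, and 2 arrays held RTC derivatives, #45 from RTC 1 and #9 from RTC 3. Embryonic stem cells (ESCs) were Apc Min/Min, Apc Min/+ or Apc +/+ with 1 array each, Min being a truncating allele. Small intestinal organoids derived from #45 had 1 array with 4-hydroxytamoxifen (4-OHT, 1 uM) and 1 without. Embryonic fibroblasts (MEFs) derived from #45 had 2 arrays with 4-OHT (2 ug/ml) and 2 without, and each 4-OHT treatment lasted 2 days. S33 ESCs and S33 MEFs had 1 array each with doxycycline (dox+) and 1 without (dox-). The labels give no dose or time for dox, do not say what S33 stands for, what 4-OHT switches or what was changed in the derivatives, and give no Apc genotype for RTCs. In the series text, switching on a mutant beta-catenin in stem cells and fibroblasts is one of the subjects. No label tells if replicate arrays are separate cultures, and their spread may be technical.

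Levels are log2 intensities after all arrays were brought to one distribution, in which the median of an array was 7.93. A gene under that median is called dim here. A difference of 1 on this scale is 2-fold. Pluripotency, intestinal epithelium and fibroblast genes were each highest on the arrays labelled for those cells. The mean of 10 pluripotency genes was 12.3 to 12.7 on the 10 RTC, derivative and ESC arrays, against at most 7.41 on the 6 fibroblast arrays. The mean of 14 intestinal epithelium genes was 12.8 on both organoid arrays and at most 9.05 on the others. The mean of 24 fibroblast genes was 12.2 to 12.7 in MEFs, 8.84 to 11.1 in pluripotent cultures and 7.48 to 7.50 in organoids. List means were at most 7.24 for 19 lymphoid genes and at most 7.97 for 5 endothelial genes. Axin2, a feedback gene of Wnt signalling, was at 11.3 in S33 MEFs with dox and 8.60 without, and at 9.35 in S33 ESCs with dox and 9.14 without.

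Promoters of 6 of the 9 genes were matched by symbol in RefSeq (GRCm38.p6), as 300 bases from 250 before the transcription start to 50 after it. The windows were searched on both strands for CTTTGNT, the motif of the TCF/LEF factors through which beta-catenin acts, and for a motif of NF-kB (GGG, any 2 bases, TT, any base, CC), the factor best known for switching on inflammatory chemokines. The 3 windows that held a match are shown, with the matched bases in capitals.
Cxcr6, chr9:123806227-123806526, plus strand: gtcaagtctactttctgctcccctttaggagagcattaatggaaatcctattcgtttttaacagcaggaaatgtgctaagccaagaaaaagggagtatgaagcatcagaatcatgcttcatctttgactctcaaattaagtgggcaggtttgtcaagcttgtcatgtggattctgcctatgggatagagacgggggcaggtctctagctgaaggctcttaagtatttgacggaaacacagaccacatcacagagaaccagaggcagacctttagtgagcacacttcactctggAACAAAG
Cxcl12, chr6:117168285-117168584, plus strand: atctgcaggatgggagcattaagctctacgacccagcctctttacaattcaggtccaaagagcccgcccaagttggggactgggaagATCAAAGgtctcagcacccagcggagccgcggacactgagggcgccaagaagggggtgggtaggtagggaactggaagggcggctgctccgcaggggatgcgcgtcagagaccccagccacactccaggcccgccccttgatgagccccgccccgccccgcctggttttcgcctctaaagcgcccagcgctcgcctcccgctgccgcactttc
Cxcl1, chr5:90890995-90891294, plus strand: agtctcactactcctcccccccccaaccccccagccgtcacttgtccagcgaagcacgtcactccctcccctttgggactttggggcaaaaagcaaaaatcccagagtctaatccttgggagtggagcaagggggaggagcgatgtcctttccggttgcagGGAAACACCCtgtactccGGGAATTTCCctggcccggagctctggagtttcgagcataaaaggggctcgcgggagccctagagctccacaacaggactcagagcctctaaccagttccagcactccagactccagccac
The TCF/LEF letters stood in the Cxcr6 window at 44 to 50 after the start and in the Cxcl12 window at -163 to -157, both on the minus strand. The share of all 32851 RefSeq windows with such a match was 18.6%, and 2 of the 6 member windows held one. NF-kB letters began in the Cxcl1 window at -89 on the minus strand and at -71 on the plus strand. That motif was found in 4.79% of all windows and in 1 of the 6. A match describes letters and is no evidence of binding.

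Cxcl12 binds the receptor Cxcr4 and the scavenger Ackr3. It was high in fibroblasts, with 8.95 in S33 MEFs with dox and 10.76 without. In #45-derived MEFs it was at 11.18 and 11.14 with 4-OHT, against 11.34 and 11.27 without. The S33 array with dox stood apart from the other 5 fibroblast arrays, and every fibroblast array was above every other array. Pluripotent cultures were between 7.004 and 8.41, and organoids were at 6.56 with 4-OHT and 6.69 without.

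Cxcl5 and Cxcl1 are ligands of Cxcr2 that attract neutrophils. Cxcl5 was at 6.85 in S33 MEFs with dox, against 9.81 without. In #45-derived MEFs it was at 9.89 and 9.22 with 4-OHT, against 10.05 and 9.76 without. The dox array lay inside the range of the pluripotent cultures, 6.27 to 7.33, all of them dim, while the other 5 fibroblast arrays were well above it. Cxcl1 spanned a smaller range, 7.81 to 9.85 in fibroblasts, 7.44 to 8.38 in pluripotent cultures and 8.18 to 8.43 in organoids. Its S33 MEF levels, 7.81 with dox and 8.46 without, were under all 4 arrays of #45-derived MEFs, which began at 9.39. Cxcr2 itself was dim on all 18 arrays.

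Cxcl13, the ligand of Cxcr5 that guides B cells into follicles, was the one chemokine here with a higher mean in organoids than in fibroblasts. Organoids were at 8.87 with 4-OHT and 8.15 without. Of the #45-derived MEFs, those with 4-OHT were at 6.39 and 8.33, against 7.74 and 9.62 without. S33 MEFs were at 6.22 with dox and 6.56 without. The #45-derived arrays with and without 4-OHT overlapped, because the first pair as a whole was lower than the second, while within both pairs the array with 4-OHT was the lower. Pluripotent cultures were dim for Cxcl13, at 5.82 to 6.59, and Cxcr5 was dim on every array.

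Cxcl14, a chemokine made by epithelia and fibroblasts, was above the array median in all fibroblast and pluripotent samples. It was at 12.51 in S33 MEFs with dox and 11.69 without, the 2 highest arrays of the 18. In #45-derived MEFs it was at 10.60 and 9.78 with 4-OHT, against 11.33 and 10.61 without. The groups with and without 4-OHT nearly met, at 10.60 and 10.61. They did not overlap, and neither did those of Cxcl1, Cxcl12, Ccl2 and Cxcr6. The share of all genes without overlap was not counted. Organoids were dim, at 6.91 with 4-OHT and 7.03 without, and pluripotent cultures ran from 8.69 to 10.69.

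Ccl2 and Ccl7 are neighbouring genes on chromosome 11 (chr11:82035577-82037452 and chr11:82045712-82047525, GRCm38.p6) whose products draw monocytes through Ccr2. Ccl2 was at 13.18 and 13.34 in #45-derived MEFs with 4-OHT, against 12.91 and 13.14 without. In S33 MEFs it was at 10.84 with dox and 11.93 without. All 6 fibroblast arrays were above the pluripotent range of 7.66 to 10.34. Ccl7 followed the same order, with 11.70 in S33 MEFs with dox, 12.11 without, 12.99 to 13.12 in #45-derived MEFs and 7.48 to 10.57 in pluripotent cultures. Ccr2 was dim on all 18 arrays.

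Ccl3, a chemokine made largely by macrophages and other leukocytes, split the fibroblasts by pair. The first pair of #45-derived MEFs was at 11.54 with 4-OHT and 11.63 without, and the second at 8.81 with 4-OHT and 8.72 without. S33 MEFs were dim, at 6.65 with dox and 6.58 without. Among pluripotent cultures RTC 2 and RTC 3, at 8.76 and 9.03, were above the other 8, which ran from 6.57 to 7.79.

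Cxcr6, the receptor of Cxcl16 known from T cells and natural killer T cells, was dim on 17 arrays. The exception was S33 MEFs with dox, at 10.54, against 6.29 without. #45-derived MEFs were at 6.80 and 7.55 with 4-OHT, against 7.66 and 7.87 without. Pluripotent cultures were at 5.74 to 6.67, and organoids at 5.92 with 4-OHT and 6.48 without. After the dox array the 4 #45-derived MEF arrays came next, the lowest of them close to the 6.67 of derivative #9. At such dim levels neighbours in the order cannot be told apart. Its ligand gene Cxcl16 was at 7.41 in S33 MEFs with dox and 7.88 without, and its highest level was 10.07 in #45-derived MEFs.

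**Figure D1:**
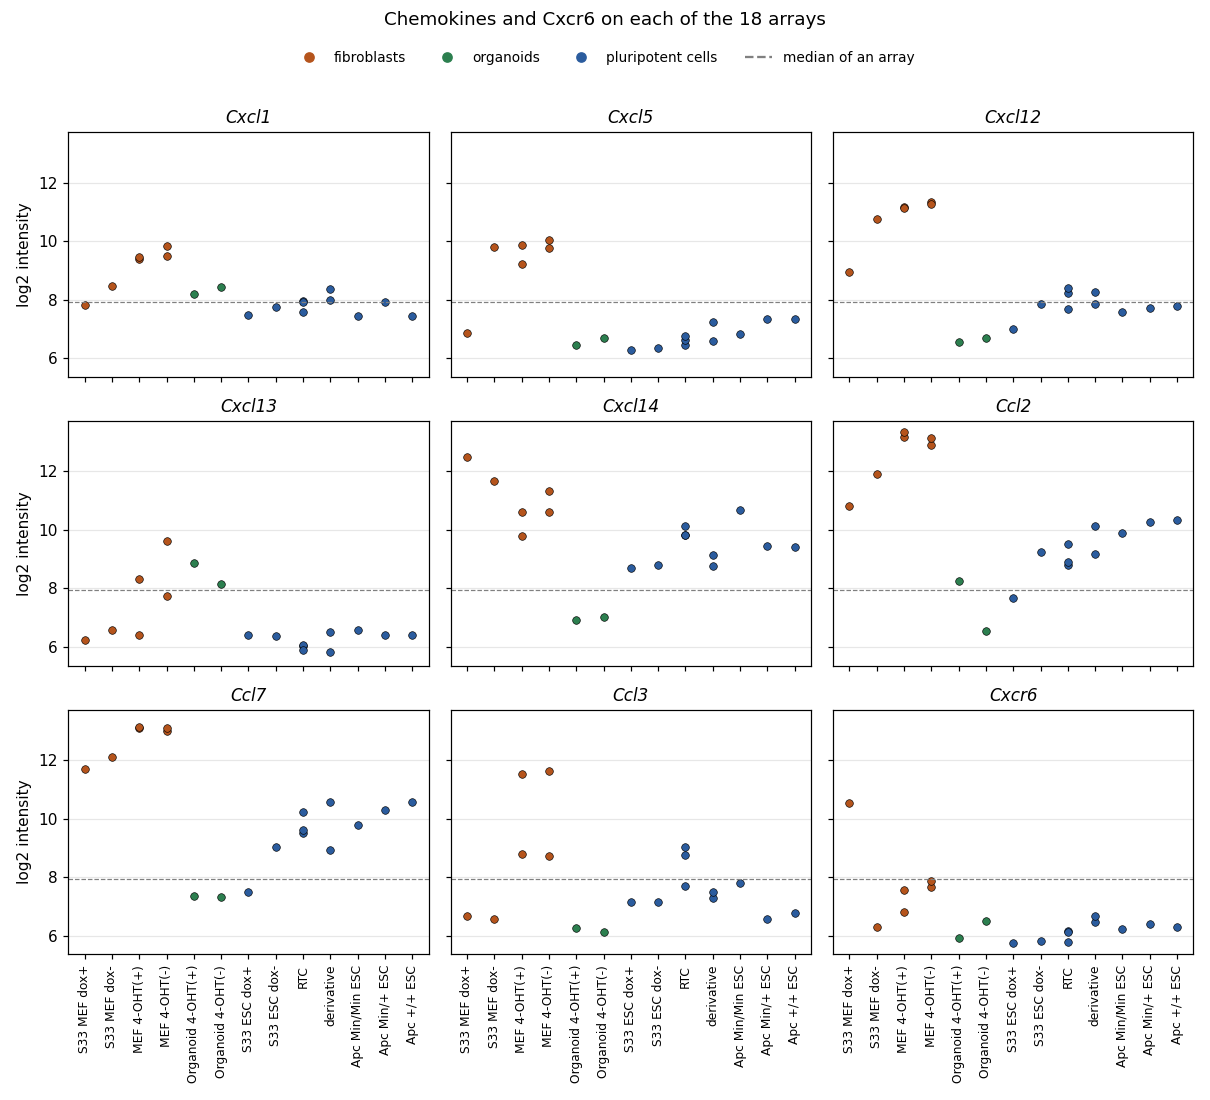
Log2 intensity (vertical axes) of the 9 genes on each array (points), by group along the horizontal axes, with the array median of 7.93 as a dashed line. Cxcr6 is above that line on the S33 MEF dox+ array alone, and Ccl2, Ccl7 and Cxcl12 are highest in fibroblasts.

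The question whether dox altered these genes in S33 MEFs rests on 1 array a side, so it has no replicate check. Cxcr6 was 4.25 higher on the dox array, and 3 of the 11391 genes compared had a larger positive difference. Cxcl5 differed by -2.96, with 7 genes further down. Cxcl12 differed by -1.82, Ccl2 by -1.09, Cxcl1 by -0.65 and Ccl7 by -0.41, while Cxcl14 differed by 0.82. Cxcl13 and Ccl3 were dim in both.

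A gene was compared if it was above the array median on at least 1 of the arrays, and 7 of the 9 members passed. At least 2-fold higher was 1 member (2.5% of all genes compared) and at least 2-fold lower were 3 (3.71%). The members were picked with this contrast known, so nothing is read from these counts. Over the 3 fibroblast arrays without dox or 4-OHT, Cxcl12 was 10.76 to 11.34 and Cxcl5 was 9.76 to 10.05.

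Fibroblast genes had a mean of 12.43 in S33 MEFs with dox and 12.68 without. All 24 were above the array median on both arrays, 3 were at least 2-fold lower with dox and none higher, and their median difference was 0.03. The mean of 17 myeloid genes was 6.89 with dox and 6.81 without. Of these genes 2 passed the filter, and 1, the leukocyte tetraspanin Cd53, was at least 2-fold higher, at 9.42 with dox and 7.38 without. Its part in the Cxcr6 level was not tested. The mean of 19 lymphoid genes was 6.67 with dox and 6.64 without. Of these genes 1, Cd3e, was above the array median on both arrays, at 7.98 with dox and 7.95 without. The part of lymphoid cells, which are best known for Cxcr6, in its level was not tested.

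The other genes of the chemokine system were read from lists. Of 28 other ligands 6 passed the filter, with 1 at least 2-fold higher and 1 lower. Of 21 other receptors 1 passed, and it was not 2-fold apart. Counts at 2-fold in such lists take only the genes that passed. Ccl8, a monocyte chemokine, was at 8.88 with dox and 7.79 without, and Ccl11, which attracts eosinophils, was at 7.08 with dox and 8.76 without. Of 29 NF-kB and inflammatory genes 19 passed, with 3 at least 2-fold higher and 1 lower. Mmp3, a matrix protease, was at 10.34 with dox and 8.04 without, Ptgs2, the inducible cyclooxygenase, at 13.61 with dox and 12.41 without, and Vcam1, an adhesion molecule, at 10.48 with dox and 11.56 without.

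4-OHT in #45-derived MEFs had 2 arrays a side. On each side 1 title ends in (2), and arrays were paired here by that mark, since no title names a pair. Cxcl13 had the lowest mean difference of all 11605 genes compared, -1.32, made of -1.35 in the first pair and -1.29 in the second. On both arrays of the first pair it was dim, and it passed the filter through the second. Cxcl14 differed by -0.73 and -0.84, a mean of -0.78, and 51 genes had a lower mean. Cxcr6 was dim on all 4 arrays, with -0.86 and -0.32. Cxcl5 differed by -0.16 and -0.54, Ccl2 by 0.27 and 0.20, and Ccl7 by 0.10 and 0.02.

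By limma without a replicate block, 0 of the 11605 genes passed an adjusted p of 0.05 in this comparison (0% called, with 519 at an unadjusted p under 0.05). With a block on the title's number, 148 of them passed (54 higher, 94 lower), and same-numbered deviations correlated at 0.765. Of the members 8 passed the filter, with none at least 2-fold higher (0.121% of all genes) and 1 lower (0.146%), Cxcl13. Nothing is read from these counts, since the members were picked with this contrast known. Other chemokine genes gave 0 calls among 21 tested without the block and 1, the chemokine Ppbp, with it. Fibroblast genes were lower on balance in the same arrays, 21 of 24 with a median of -0.26, and their mean level was 12.2 with 4-OHT against 12.4 to 12.5 without. Of 17 myeloid genes 14 were lower, with a median of -0.20. The part of either in the Cxcl13 and Cxcl14 differences was not tested.

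**Figure D2:**
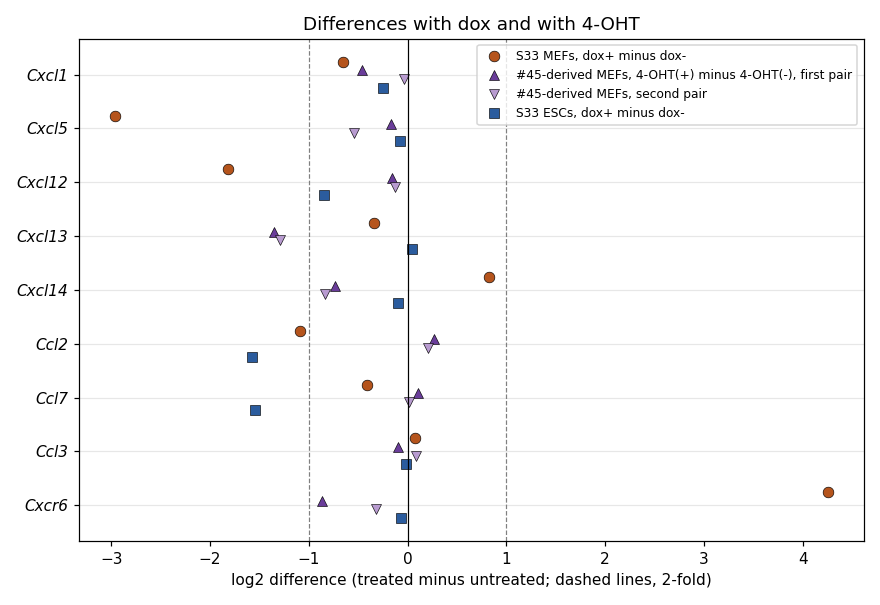
Log2 differences (horizontal axis, treated minus untreated) of the 9 genes in S33 MEFs and S33 ESCs with dox and in each pair of #45-derived MEFs with 4-OHT. Cxcr6 in S33 MEFs lies at 4.25 and Cxcl5 at -2.96, and both 4-OHT pairs put Cxcl13 near -1.3. Cxcl13 was dim on both arrays of the first pair.

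The 2 pairs of #45-derived MEFs also differed from each other. Deposited values were identical at 19.2% of probe sets between the arrays of the second pair and at 0% between those of the first. The pairs may have been normalized in separate sets of arrays, which cannot be told apart here from a difference between cultures. Ccl3 was 2.82 higher in the first pair than in the second, and Cxcl13 differed by -1.91. Of the members 8 passed, with 1 at least 2-fold higher (1.65% of all genes) and 1 lower (1.39%). Myeloid genes ran the same way as Ccl3. Their mean was 10.2 and 10.4 in the first pair against 8.03 and 8.18 in the second, with 15 of 17 at least 2-fold higher, and 16 were above the array median in the first pair against 8 in the second. Examples are Adgre1, which encodes a surface receptor of macrophages, with 2.88, and Lyz2, the lysozyme of myeloid cells, with 2.87. Of 28 other ligands 17 passed. In the first pair 5 were at least 2-fold higher, with Ccl6 (2.69) and Ccl9 (2.03) at the top, and 4 were lower. The interferon-induced Cxcr3 ligands Cxcl10 (-2.79), Cxcl11 (-2.64) and Cxcl9 (-2.51) were among those lower. In a culture, fewer cells of a type and less RNA per cell cannot be told apart, and the part of myeloid cells in the Ccl3 level was not tested.

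**Figure D3:**
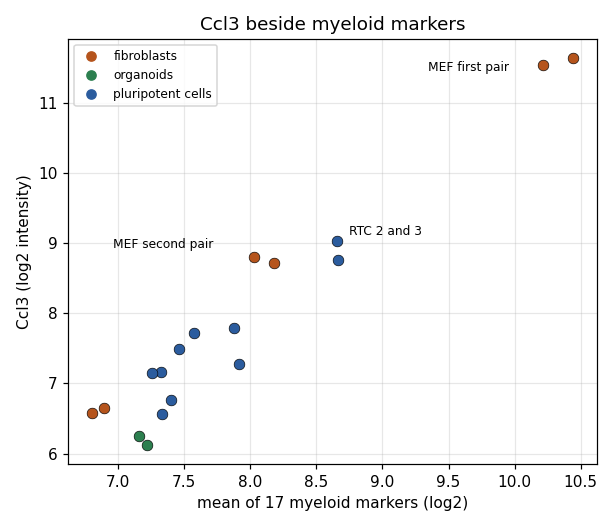
Ccl3 (vertical axis, log2 intensity) against the mean of 17 myeloid genes (horizontal axis, log2) on the 18 arrays. The first MEF pair has the highest values of both, and RTC 2, RTC 3 and the second MEF pair come next.

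Ccl2, Ccl7 and Cxcl14 were well above the array median in most pluripotent cultures, where fibroblast genes were found as well. In S33 ESCs Ccl2 was at 7.66 with dox and 9.23 without, a difference of -1.57. Ccl7 was at 7.48 with dox and 9.02 without (-1.54), and Cxcl12 at 7.004 with dox and 7.85 without (-0.85), dim on both. Only Ccl2, Ccl7 and Cxcl14 passed the filter, and 2 of the 9 were at least 2-fold lower (2.18% of all genes) with none higher (0.986%). Fibroblast genes were lower too, with a mean of 8.84 with dox and 9.79 without, 10 of 24 at least 2-fold lower, and 18 above the array median with dox against 20 without. Of 28 other ligands 5 passed, and of 29 inflammatory genes 12. In each list 2 were at least 2-fold lower, with none higher. Csf1, the macrophage growth factor, was at 7.97 with dox and 10.16 without, and the chemokine Cxcl10 at 7.14 with dox and 8.51 without. The labels name no feeder layer, and the share of the chemokine differences that goes with fibroblast content was not tested.

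Over all pluripotent arrays the S33 ESC dox array was lowest for Ccl2, Ccl7, Cxcl12 and Cxcl14 and for the fibroblast mean. The 3 Apc-typed ESC arrays had the highest fibroblast means, 10.97 to 11.08, and the Apc +/+ and Apc Min/+ arrays the highest Ccl2, 10.34 and 10.29. The order did not hold throughout for Ccl2. Apc Min/Min ESCs, with a fibroblast mean of 11.08, were at 9.88. The derivative of RTC 1 was higher, at 10.15, with a fibroblast mean of 10.04. That derivative also had the highest Ccl7, 10.57, against 10.56 in Apc +/+, 10.29 in Apc Min/+ and 9.77 in Apc Min/Min ESCs. Cxcl12 did not follow that order either. The Apc-typed ESC arrays were at 7.56 to 7.78 for it, and the RTC and derivative arrays reached 8.41.

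**Figure D4:**
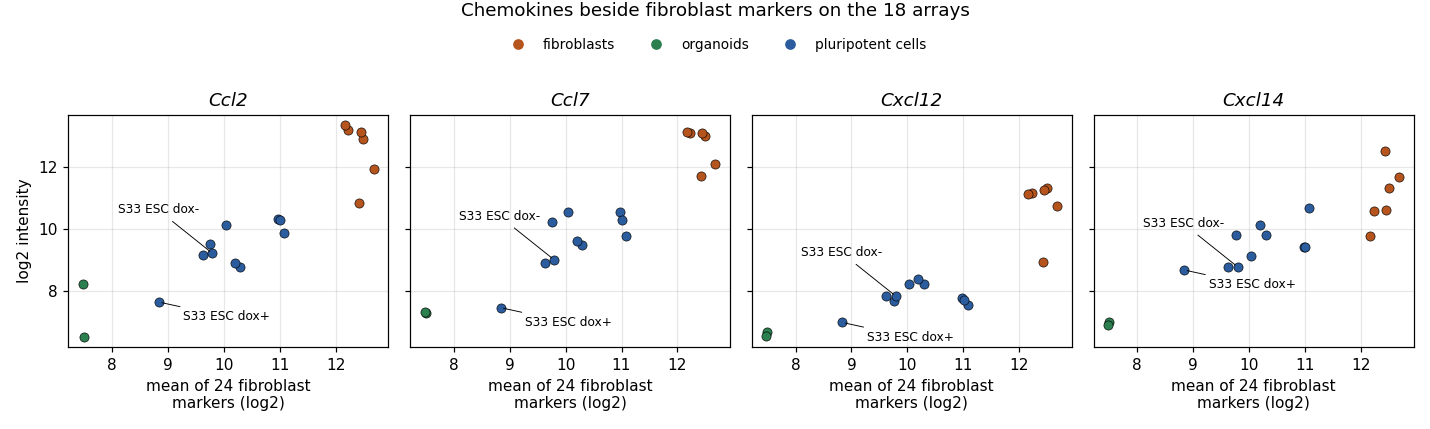
Log2 intensity of Ccl2, Ccl7, Cxcl12 and Cxcl14 (vertical axes) against the mean of 24 fibroblast genes (horizontal axes, log2) on the 18 arrays. Among pluripotent cultures the S33 ESC dox+ array, at 8.84 on the horizontal axis, has the lowest level of all 4 chemokines.

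Apc Min/Min ESCs differed from Apc +/+ ESCs in Cxcl14, at 10.69 in Min/Min and 9.42 in +/+ cells (1.26), with Apc Min/+ at 9.43. Ccl3 was at 7.79 in Min/Min and 6.76 in +/+ cells, dim in both, and Ccl7 at 9.77 in Min/Min and 10.56 in +/+ cells (-0.79). Of the members 3 passed, with 1 at least 2-fold higher (4.6% of all genes) and none lower (5.65%). Of 28 other ligands 5 passed the filter. Ppbp, a neutrophil chemokine, was at least 2-fold lower, at 7.77 in Min/Min and 9.54 in +/+ cells. Of 29 inflammatory genes 17 passed, with 3 at least 2-fold higher and 2 lower. The higher were the cytokine Il11, at 9.30 in Min/Min and 7.49 in +/+ cells, Csf1, at 12.00 and 10.61, and Ptgs2, at 12.74 and 11.65. The lower were the matrix proteases Mmp3, at 9.01 in Min/Min and 11.42 in +/+ cells, and Mmp13, at 7.64 and 9.56. Myeloid means were 7.88 in Min/Min and 7.41 in +/+ cells, and fibroblast means 11.08 in Min/Min and 10.97 in +/+ cells. The labels also list another medium, with FGF4, for Min/Min ESCs without saying which array it concerns.

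Whether RTCs resemble pluripotent stem cells was asked by setting the 3 RTC arrays beside Apc +/+, Apc Min/+ and untreated S33 ESCs. In RTC 1 Ccl3 was at 7.71, in RTC 2 at 8.76 and in RTC 3 at 9.03, against 6.76, 6.57 and 7.16 in those ESCs. The groups did not overlap and the means differed by 1.67, with RTC 1 and all of these ESCs dim. Cxcl14 was at 9.82, 9.82 and 10.13 in RTCs, against 9.42, 9.43 and 8.79 in ESCs, also without overlap (0.71). Apc Min/Min ESCs, which are not in this comparison, were above RTC 1 for Ccl3 (7.79) and above every RTC for Cxcl14 (10.69). How many of all genes had no overlap between so few arrays was not counted. Ccl2, at 9.53, 8.80 and 8.92 in RTCs, against 10.34, 10.29 and 9.23 in ESCs, overlapped and differed by -0.87.

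By limma 808 of 12080 genes (6.69%) passed in that comparison, 388 of them higher (3.21%) and 420 lower (3.48%). Of the members 6 passed the filter, with 1 at least 2-fold higher (2.06% of all genes) and none lower (1.91%). Among 10 other chemokine genes tested, 1 rose: Pf4, a chemokine of platelets and macrophages, with a log2 difference of 2.43 ± 0.57 (SE, n = 3 and 3, adjusted p = 0.0488, limma). The RTCs had levels of 7.15, 9.22 and 9.09, against 5.40, 6.06 and 6.70 in ESCs, so RTC 2 and 3 were the high arrays, as for Ccl3. RTC 1 and all of these ESCs were dim for Pf4, which passed the filter only through RTC 2 and 3. Without the filter 0 chemokine genes were called. The adjusted p of Pf4 was 0.132 without RTC 2, 0.165 without RTC 3, 0.134 without Apc +/+ and 0.141 without Apc Min/+ (limma). Myeloid means were 7.58, 8.67 and 8.66 in RTCs, against 7.32 to 7.41 in ESCs, and all 17 myeloid genes had higher means in RTCs. Their part in the Ccl3 and Pf4 levels was not tested. Of 16 NF-kB and inflammatory genes tested, Csf1 fell by 1.23 ± 0.19 (adjusted p = 0.0125, limma) and Ptgs2 fell by 1.05 ± 0.22 (adjusted p = 0.0318, limma). Csf1 passed in 3 of 6 fits with an array left out (without RTC 1, RTC 2 or S33) and Ptgs2 in 1 (without S33), with adjusted p up to 0.0557 and 0.115. All 24 fibroblast genes had lower means in RTCs, with a median of -0.47.

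RTCs and their derivatives differed in the same members. Ccl3 was at 7.71, 8.76 and 9.03 in RTCs, against 7.27 in #45 and 7.49 in #9, a difference of 1.12 without overlap. RTC 1 and both derivatives were dim for it, and overlap over all genes was not counted. Within lines the difference was 0.44 for RTC 1 minus #45 and 1.54 for RTC 3 minus #9. Cxcl14, at 9.14 in #45 and 8.78 in #9, was lower than in every RTC, with 0.68 in the first line and 1.35 in the other. At least 2-fold higher was 1 of the 6 members that passed (1.91% of all genes) and none was lower (1.55%). These values share the RTC arrays with the comparison with ESCs.

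By limma 191 of 11941 genes (1.6%) passed between RTCs and derivatives, 100 of them higher (0.837%) and 91 lower (0.762%). Of 12 other chemokine genes tested, 1 fell: Ackr4, a scavenger receptor for Ccl19 and Ccl21, with -1.16 ± 0.20 (SE, n = 3 and 2, adjusted p = 0.0442, limma). It was at 7.16, 6.69 and 6.75 in RTCs, against 8.03 and 8.02 in derivatives. With line of origin as a block the adjusted p was 0.0708, and it was 0.0709 to 0.193 when any 1 of the 5 arrays was left out. Among 16 NF-kB and inflammatory genes Saa3, an acute phase gene, rose by 1.24 ± 0.17 (adjusted p = 0.021, limma). Nfkbia, the inhibitor that NF-kB itself induces, fell by 1.16 ± 0.18 (adjusted p = 0.0301, limma), and its adjusted p was 0.0533 with the block. With an array left out, Saa3 passed in 2 of 5 fits and Nfkbia in 1, in each case without a derivative (adjusted p up to 0.115 and 0.155). Myeloid genes had higher means in RTCs in 17 of 17 and fibroblast genes in 20 of 24, with medians of 0.55 and 0.23. Both lists differed in direction between the lines of origin. For RTC 3 minus its derivative 17 of 17 myeloid genes were higher (median 0.67) and 21 of 24 fibroblast genes (median 0.62). For RTC 1 minus its derivative 13 of 17 myeloid genes were lower (median -0.27) and 19 of 24 fibroblast genes (median -0.34). RTC 2 has no derivative here, and the part of either list in the Ccl3 and Cxcl14 differences was not tested.

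In organoids 4-OHT was compared on 1 array a side. Ccl2 was at 8.25 with 4-OHT and 6.55 without, a difference of 1.70, with 56 of 11407 genes higher. Cxcl13 differed by 0.71, and 3 members passed the filter, with 1 at least 2-fold higher (2.1% of all genes) and none lower (0.745%). Ccl2 lay next to the array median with 4-OHT and was 0.91 higher on the values as deposited, where all genes shifted by -0.45 in the median. Among other chemokines Cxcl16 was at 9.98 with 4-OHT and 8.84 without, and Ccl6 at 8.79 with 4-OHT and 10.09 without. Of 29 inflammatory genes 14 passed, with 3 at least 2-fold higher. The alarmin Il33 was at 8.76 with 4-OHT and 6.27 without, and Tnf at 9.12 with 4-OHT and 7.40 without. The mean of the fibroblast list was 7.48 with 4-OHT and 7.50 without, and 8 of 24 genes were above the array median with it against 10 without. Of the 24 genes 16 were lower with 4-OHT, with a median difference of -0.26. Fn1 (10.10 with 4-OHT and 7.02 without) and Vim (11.71 with 4-OHT and 10.18 without), both on that list, were at least 2-fold higher.

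The genes most like each member over the 18 arrays were found by Pearson correlation among 13945 genes. These values describe arrays that share cell types and lines, so they carry no p. Ccl7 was the gene nearest to Ccl2 (r = 0.973), followed by Aida and Gsap, and Ccl7 itself lay nearest to Gypc, Lhfp and Tbx15 (0.973 to 0.981). Cxcl12 went with Nnmt, Ebf3 and Pde1a (0.969 to 0.973), and Cxcl5 with Gas2, Ptx3 and Tmem35a (0.952 to 0.975). Nearest to Ccl3 were Adgre1, Lilr4b and Ms4a7 (0.972 to 0.978), the first of them a listed myeloid gene. Cxcl14 went with Ndrg4, Rusc2 and Nrp2 (0.941 to 0.946), and Cxcl1 with H2-T10, Fgf16 and Irf7 (0.922 to 0.923). Cxcl13 had the lowest values, with Ppef1, Trim14 and Clca3a2 at 0.876 to 0.891.

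For Cxcr6 the nearest were Galnt14, Sp7 and Trpc6, at 0.936 to 0.956. Without the S33 MEF dox array these values were 0.770 to 0.850, over 17 arrays. Trpc6, a cation channel gene, was at 10.15 in S33 MEFs with dox and 7.48 without, and Sp7, the osteoblast factor osterix, at 8.78 with dox and 7.02 without. Galnt14, a glycosyltransferase gene, was at 8.71 with dox and 6.83 without.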

How the data were processed

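The authors deposited 1 linear intensity per probe set and array for 28856 probe sets, and the steps behind it are not given in the sources used here. Arrays did not share one scale: deposited medians ran from 142 to 317. The deposited intensities were turned to log2 and quantile normalized over all 18 arrays (Python 3.11.15, pandas 2.3.3). Probe sets with 1 symbol (21789) were kept, those with several (1621) or none (5443) were not named, and 3 had no values. By Entrez identifier 21698 matched RefSeq (GRCm38.p6), and 0 symbols changed. A gene with several probe sets was read by the one of highest mean. A gene was compared if above the array median (percentile 50) on at least 1 array compared.

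Replicated contrasts were fitted in R 4.3.3 by lmFit and eBayes of limma 3.58.1 (two-sided, Benjamini-Hochberg at 0.05 over all genes compared), which was tested on simulated data. Groups follow the titles. The number of arrays limits precision. The members and gene lists were chosen with earlier results of these data known. Genes were named by a rule: the members, their 3 nearest genes, partner receptors and ligands, genes of the chemokine and inflammatory lists that were called or at least 2-fold apart, and Axin2. Not every list gene at least 2-fold apart is named. Other marker genes were picked after their values were seen.

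RTCs and derivatives are paired by line, per the labels, and same-line deviations correlated at 0.0869 and 0.0293. Alternatives were the deposited scale, median centring, no filter, the mean over probe sets, leaving out arrays and replicate blocks.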

Additional observations from a re-analysis of the deposited data

Results flagged for a closer look

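With dox, Cxcr6, Cxcl14, Cxcl13 and Ccl3 differed with opposite sign in S33 MEFs and S33 ESCs, each on 1 array a side. The difference between cell types was not tested, and the share of all genes with opposite signs was not counted. In ESCs these differences were at most 0.10 in size, so nothing is read from their signs. Cxcr6 differed by 4.25 in MEFs and -0.07 in ESCs, Cxcl14 by 0.82 in MEFs and -0.10 in ESCs, Cxcl13 by -0.34 in MEFs and 0.04 in ESCs, and Ccl3 by 0.08 in MEFs and -0.02 in ESCs. Cxcl13 and Ccl3 were dim on all 4 arrays, and Cxcr6 was dim on both ESC arrays, at 5.74 with dox and 5.81 without. With 4-OHT, Cxcl13 differed by 0.71 in organoids and by -1.35 (dim on both arrays) and -1.29 in the pairs of #45-derived MEFs. That difference was not tested, and the doses differed.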

How the results depend on the processing

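Of 216 member differences under the deposited scale and median centring, 14 changed sign, none of them among those at least 2-fold in the main analysis. Organoid Ccl3 was -0.695 as deposited and 0.127 in the main analysis, and organoid Ccl7 -0.741 and 0.046. The main value was at most 0.17 in size in all 14. Of the 216, 8 moved by at least 0.5, all in organoids as deposited, where the count of members at least 2-fold higher was 0 in place of 1. Between RTCs and ESCs 359 genes were called as deposited (214 higher, 145 lower) and 871 after centring (273 higher, 598 lower), against 388 higher and 420 lower in the main analysis. The chemokine genes called there were 4 as deposited, 2 after centring and 0 without the filter, against 1. Leaving out 1 array gave 234 to 1170 genes and 0 to 2 chemokine genes. Between RTCs and derivatives 81 genes were called as deposited (58 higher, 23 lower), against 100 higher and 91 lower. Leaving out 1 array gave 33 to 383 genes and 0 chemokine genes. With the line of origin as a replicate block 233 genes and 0 chemokine genes were called, and 143 genes were shared with the fit without it.

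For 4-OHT in MEFs, 0 genes were called under every alternative but the replicate block on the title's number, which called 148 (54 higher, 94 lower) and 1 chemokine gene. That gene is Ppbp (-0.61, adjusted p = 0.0447, limma). The numbers are not said to mark a shared culture, and same-numbered deviations correlated at 0.765. Between scales the median over all genes differed in organoids (-0.447 as deposited, 0.178 centred) and within RTC lines (-0.143 and 0.125 as deposited). Contrasts with 1 array a side have no error, and the causes of these shifts were not tested.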
